A study of Mus musculus with 2 samples.

Results

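Inhibins and activins are dimers of the transforming growth factor beta (TGF-beta) family that are built from shared subunits. An alpha subunit (Inha) joined to a beta subunit (Inhba or Inhbb) makes an inhibin, and beta subunits joined to each other make an activin. Granulosa cells, the somatic cells around the oocyte, make them under follicle-stimulating hormone (FSH). Inhibin from the ovary lowers FSH release by the pituitary, and activin raises it and also acts inside the follicle. Follistatin (Fst) binds activin and keeps it from its receptors. Activin binds a type II receptor kinase (Acvr2a or Acvr2b), which recruits and activates a type I receptor kinase (mainly Acvr1b) that phosphorylates SMAD proteins. Betaglycan (Tgfbr3) is a co-receptor that helps inhibin to occupy the type II receptor. These genes and Acvr1, which encodes another type I receptor, were described here in granulosa cells with and without estrogen receptor beta (ERβ, encoded by Esr2).

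The 9 genes were Inha, Inhba, Inhbb, Fst, Tgfbr3, Acvr2a, Acvr2b, Acvr1 and Acvr1b, out of 20868 probes. Without an outlier flag on both arrays 20615 genes or unnamed transcripts were measured, among them all of these genes except Inhbb, and 18561 of them were past a background filter. Each gene had 1 probe printed once, except as stated. Probes of 7 genes were found by their RefSeq accession. The probes of Inhbb (X69620) and Tgfbr3 (AF039601) carry no symbol in the files and were assigned from the product that the description names, the inhibin beta-B subunit and betaglycan.

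The null pool was RNA from granulosa cells of Esr2-/- mice and the het pool RNA from granulosa cells of Esr2+/- mice. All donors were C57/Bl6 females aged 23 to 25 days that had received pregnant mare serum gonadotropin (PMSG, a hormone with FSH-like action) for 48 h, so neither group is untreated. Animals were pooled by genotype into 1 RNA sample each, and the het pool keeps 1 intact Esr2 copy, so no wild-type cells were compared. The pools were hybridised together on 2 two-colour Agilent arrays, with the null pool in Cy5 on array 1 and in Cy3 on array 2. Both arrays thus measured the same RNA. Each SD below is over these 2 technical hybridisations, and no p-value can be given. Ratios are log2 of null over het unless stated otherwise, after normexp background correction and loess normalization.

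Well above background were 93.0% and 90.1% of spots in the null pool on arrays 1 and 2, and 87.2% and 95.1% in the het pool. Probes printed in several spots gave the spot-to-spot error within an array: over 50 such probes the median SD of the log2 ratio was 0.04 on array 1 and 0.03 on array 2, and the highest was 0.10 and 0.08. The Esr2 probe had ratios of -0.50 and -0.46. Its position relative to the disruption was not available here, so it does not check the genotype labels. Of 7 measured granulosa markers 5 were negative on both arrays and 2 positive on both. Their summed signal on the linear scale was 3537 and 4902 in the null pool, against 6477 and 6102 in the het pool. The lowest mean ratios were those of the aromatase gene Cyp19a1 (-1.27) and the nuclear receptor gene Nr5a2 (-0.69). Both are also among the genes below on which activin or FSH acts. Nr5a2 had log2 signals of 10.67 and 11.54 in the null pool, against 11.85 and 11.73 in the het pool. Mean ratios of the other granulosa markers ran from -0.44 to 0.37, so the sum does not stand for each marker. All 8 measured oocyte markers were positive on both arrays, with a summed signal of 14366 and 11617 in the null pool, against 7767 and 8145 in the het pool. Their mean ratios ran from 0.15 to 0.81 (Gdf9), so this sum does not stand for each marker either. Marker lists of theca, stroma and smooth muscle, endothelium, leukocytes and surface epithelium had median ratios from -0.05 to 0.11. Single genes in these lists ran from -0.27 to 0.49. Arrays give no true 0, so the absence of a marker cannot be read. The part of these marker differences in the ratios below was not tested, and fewer cells of a type and less RNA per cell cannot be told apart in pooled RNA.

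**Figure D1:**
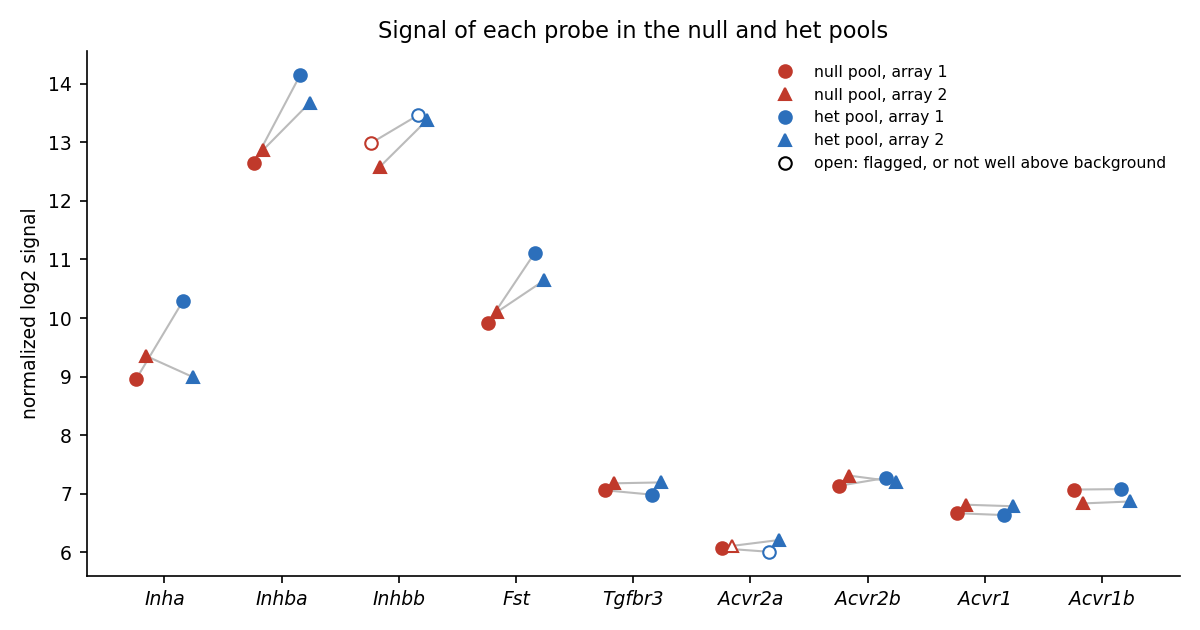
Normalized log2 signal (vertical axis) of the probe of each gene in the null pool (red, left of each pair) and the het pool (blue, right), for array 1 (circles) and array 2 (triangles), with lines joining the pools of an array and open symbols for spots flagged or not well above background. The null points of Inhba, Inhbb and Fst lie below their het points on both arrays, the Inha lines run in opposite directions, and the 5 receptor genes lie at or below 7.31 with nearly level lines.

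Inhba, the gene of the beta A chain found in activin A and inhibin A, fell in the null pool. Its normalized log2 signal was 12.65 and 12.87 in the null pool on arrays 1 and 2, against 14.16 and 13.68 in the het pool. The pools did not overlap, and the arrays differed more in the het pool. The scanner's mean spot signals behind these were 10795 (Cy5) and 3943 (Cy3) in the null pool, against 12453 (Cy3) and 23818 (Cy5) in the het pool, each at least 85.7 times the local background. The log2 ratio was -1.51 on array 1 and -0.81 on array 2, averaging -1.16 ± 0.50 (SD, n = 2), a 2.24-fold lower level. Inhba was the only one of the genes to pass the size rule, under which the mean must reach 2-fold and each array 1.5-fold in that direction. In all, 0.0916% of the 18561 genes passed that rule as lower and 0.0377% as higher, and 10 genes (0.0539%), Inhba included, had a mean ratio at or below that of Inhba. Array 2 alone did not reach 2-fold, and under median centring, which applies 1 shift to a whole array in place of loess, the ratios were -0.95 on array 1 and -1.50 on array 2, so that array 1 fell short instead. On both arrays all 200 genes nearest to Inhba in brightness had higher ratios than Inhba.

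Inhbb, the gene of the beta B subunit of activin B and inhibin B, can be read without a flag on array 2 only. There its log2 signal was 12.59 in the null pool, against 13.38 in the het pool, and the ratio was -0.79, or 1.73-fold lower. The lowest of the 200 genes nearest to it in brightness on that array was Inhba at -0.81, and the other 199 had ratios above that of Inhbb. Of all 18561 genes, 25 (0.135%) had an array 2 ratio at or below it. On array 1 the scanner software flagged the Inhbb spot as non-uniform in both channels, and the SD over its pixels was 13.2% of the mean signal in the null channel and 14.7% in the het channel, against 10.1% and 9.56% for Inhba. The flagged spot had 12.99 in the null pool, against 13.46 in the het pool, a ratio of -0.48. With that spot kept, the null values lay below the het values on both arrays and the mean was -0.63 ± 0.22 (SD, n = 2), which would not pass the size rule. Under median centring the flagged spot of array 1 had 0.08 and the array 2 spot -1.47. The 200 genes nearest to Inhbb in brightness then had medians of 0.52 on array 1 and -0.66 on array 2. Against those medians the flagged spot stood at -0.44 and the array 2 spot at -0.80.

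The sequences before the starts of the 2 beta subunit genes are shown because both genes read lower in the null pool on the arrays that measured them. They are the 250 bases upstream of the start that the RefSeq promoter table of GRCm38.p6 uses, 5′ to 3′ on the gene's strand, with CpG dinucleotides in capitals. Inhba lies at chr13:16011601-16011850 on the plus strand, and the annotated Inhba gene reaches 7595 bases farther upstream than the start used. Inhbb lies at chr1:119422249-119422498 on the minus strand, directly before the outermost annotated start.
Inhba: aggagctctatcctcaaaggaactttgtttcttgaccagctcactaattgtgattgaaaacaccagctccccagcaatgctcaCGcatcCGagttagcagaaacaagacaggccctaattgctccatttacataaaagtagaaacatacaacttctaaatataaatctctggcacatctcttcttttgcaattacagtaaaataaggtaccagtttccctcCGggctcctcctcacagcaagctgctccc
Inhbb: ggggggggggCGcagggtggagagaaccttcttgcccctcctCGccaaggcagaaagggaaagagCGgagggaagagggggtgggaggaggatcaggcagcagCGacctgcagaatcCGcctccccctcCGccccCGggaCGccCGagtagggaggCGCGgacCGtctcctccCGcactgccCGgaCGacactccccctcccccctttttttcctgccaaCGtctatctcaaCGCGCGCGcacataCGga
The windows differ in composition. The Inhba window has 3 CpG dinucleotides and 43.2% G and C, and the Inhbb window has 21 and 68.0%, against medians of 6 and 52.4% over 32851 windows of the same 250 bases upstream of mouse gene starts.

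Sites of factors known to act in granulosa cells were searched in these windows on both strands. The motifs were the cAMP response element TGACGTCA and its core TGACG, the palindromic estrogen response element, the nuclear receptor monomer site AGGTCA, the longer site CAAGGTCA of the steroidogenic factor 1 type (which contains AGGTCA), the AP-1 site TGANTCA and the SMAD box GTCTAGAC. None of the 7 motifs was found in the Inhba or the Inhbb window. Of all windows, 1.55% hold TGACGTCA, 17.8% TGACG, 0.0639% the estrogen response element, 14.0% AGGTCA, 1.33% CAAGGTCA, 6.75% TGANTCA and 0.167% GTCTAGAC. Among the 7 genes with a window (not Fst or Tgfbr3), the 1 match was AGGTCA in the Inha window, 69 bases before the start used. That start lies 532 bases inside the outermost annotated start of Inha, and the window is not shown. A match describes letters only, and the lack of a match draws nothing about a factor.

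Inha, which encodes the alpha subunit that all inhibins share, gave opposite directions on the 2 arrays. Its log2 signal was 8.96 and 9.35 in the null pool on arrays 1 and 2, against 10.30 and 8.99 in the het pool. The pools overlapped, since the het value of array 2 lay between the null values. The ratio was -1.34 on array 1 (2.53-fold lower) and 0.36 on array 2 (1.28-fold higher), so the mean of -0.49 ± 1.20 (SD, n = 2) has no settled direction. The spots were not dim or uneven. The mean spot signals were 741 and 404 in the null pool, against 834 and 930 in the het pool, between 8.98 and 17.2 times the background, none was flagged, and the pixel SDs lay between 9.17% and 10.6% of the mean.

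Read as red over green, without turning array 2, Inha had -1.34 on array 1 and -0.36 on array 2. After loess the Cy5 reading was thus the lower one both times, whereas under median centring red over green was 0.13 on array 2. The part of the loess ratio that followed the dye was -0.85, against -0.49 for the part that followed the genotype. With 1 array in each orientation, the first part also holds any other difference between the arrays, and these cannot be told apart. Its larger size depended on loess. Under median centring the ratios were -0.91 and -0.13, both of the same sign, with a mean of -0.52, so the genotype part was then the larger. Of 18561 genes, 2 (0.0108%) had an SD over the arrays at least that of Inha, and these were Inha itself and the alpha globin gene Hba-a1 (1.83), named after its value was seen. On array 1, 11 genes (0.0593%), Inha included, had a ratio at or below that of Inha, and of these Inha alone (0.00539%) had a ratio above 0 on array 2. Among the 200 genes nearest to Inha in brightness, all 200 had a higher ratio on array 1, whereas on array 2 190 had a lower and 10 a higher one. Both arrays thus placed Inha toward the edge of genes of like brightness, on opposite sides.

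The direction on array 2 also changed with the normalization. Under median centring Inha had -0.91 on array 1 and -0.13 on array 2, and both arrays then read lower. The 200 equally bright genes themselves had medians of 0.44 on array 1 and -0.51 on array 2 under median centring. Against those medians Inha stood at -1.35 on array 1 and at 0.37 on array 2. The deposited scanner ratios of Inha, turned to log2, were -1.45 and 0.41.

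**Figure D2:**
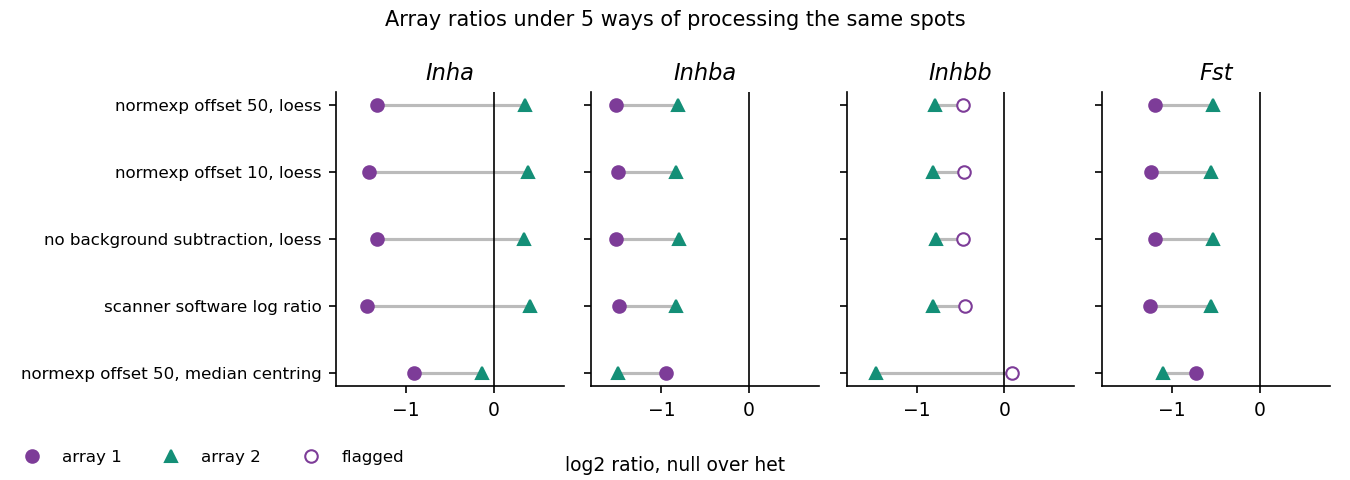
Log2 ratio, null over het (horizontal axis), of Inha, Inhba, Inhbb and Fst on array 1 (circles) and array 2 (triangles) under 5 ways of processing the same spots (rows). Inhba and Fst stay below 0 on both arrays in every row, array 2 of Inha is above 0 in every row except median centring, and the open circles of Inhbb are its flagged spot.

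Fst, the gene of the activin-binding protein follistatin, was lower in the null pool on both arrays but short of the size rule. Its log2 signal was 9.91 and 10.11 in the null pool, against 11.11 and 10.64 in the het pool, without overlap. The mean spot signals were 1498 and 622 in the null pool, against 1489 and 2825 in the het pool. The ratio was -1.20 on array 1 and -0.54 on array 2, with a mean of -0.87 ± 0.47 (SD, n = 2), or 1.83-fold lower. It missed the rule on both counts, since the mean was under 2-fold and array 2 gave 1.45-fold. At a threshold of 1.5-fold on the mean with both arrays the same way, Fst and Inhba passed as lower, and none of the genes as higher, against 0.431% and 0.404% of all genes. Of the 18561 genes, 30 (0.162%) had a mean ratio at or below that of Fst. On array 1 all 200 genes nearest to Fst in brightness had higher ratios, and on array 2 198 did.

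**Figure D3:**
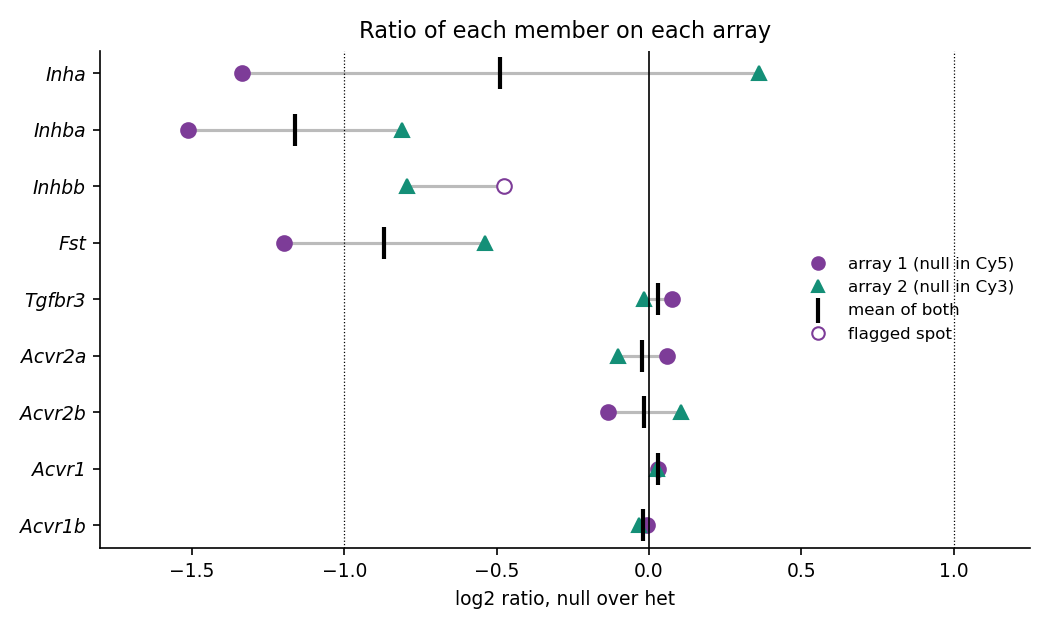
Log2 ratio, null over het (horizontal axis), of each gene (rows) on array 1 (circles) and array 2 (triangles), with the mean of both as a black bar and dotted lines at 2-fold. Inhba and Fst are below 0 on both arrays, Inha spans 0, the open circle of Inhbb is a flagged spot left out of the mean, and the 5 receptor genes lie close to 0.

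The receptor genes differed little between the pools at low signal. Tgfbr3, Acvr2b, Acvr1 and Acvr1b were past the background filter, with mean spot signals of 1.71 to 4.56 times the background. Their log2 signals lay between 6.66 and 7.31 in the null pool, against 6.63 to 7.27 in the het pool. None passed the size rule. Mean ratios ran from -0.02 to 0.03, and single arrays from -0.13 to 0.10.

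The co-receptor gene Tgfbr3 had log2 signals of 7.06 and 7.17 in the null pool, against 6.98 and 7.19 in the het pool, and a ratio of 0.03 ± 0.06 (SD, n = 2). Acvr2b, a type II receptor that binds activin, had 7.13 and 7.31 in the null pool, against 7.27 and 7.20 in the het pool. Its ratios were -0.13 and 0.10, opposite in sign like those of Inha but with an SD of 0.17, against 1.20 for Inha. The pools of both genes overlapped.

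Acvr1b, the main type I receptor of activin, had 7.07 and 6.83 in the null pool, against 7.08 and 6.86 in the het pool, a ratio of -0.02 ± 0.02 (SD, n = 2). Acvr1, a type I receptor that also serves bone morphogenetic proteins (BMPs), had 6.66 and 6.81 in the null pool, against 6.63 and 6.78 in the het pool, a ratio of 0.03. For both genes the arrays differed more than the pools did. The offset of 50 added to each signal pulls ratios of such dim spots toward 0, so these values bound no true difference. With an offset of 10 the mean ratios of the 4 genes ran from -0.03 to 0.05. Signs this close to 0 were not stable, since under median centring Acvr1b had -0.06 and 0.17 and Acvr1 -0.20 and 0.26 on arrays 1 and 2.

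Acvr2a, the other type II receptor, was not past the background filter. It was well above background in the null pool on array 1 only and in the het pool on array 2 only, which is in the Cy5 channel each time. Its spot signals were 71.2 and 76.9 in the null pool, against 60.8 and 94.9 in the het pool, or 1.29 to 1.79 times the background. No fold is given for it.

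Of the 9 genes, 7 were measured on both arrays without a flag and were past the filter, and Inhbb and Acvr2a were not. Of these 7, 1 passed the size rule as lower and 0 as higher. Ratios were negative on both arrays for Inhba, Fst and Acvr1b, positive on both for Acvr1, and of opposite sign for Inha, Acvr2b and Tgfbr3. Of all genes, 24.3% were negative on both arrays and 22.7% positive on both. The median ratio of the 7 was -0.02, and that of all genes -0.0038. Under median centring the signs of Acvr1 and Acvr1b turned opposite between arrays, Inha became negative on both and Tgfbr3 positive on both. With the scanner's ratios Acvr1b turned opposite and Tgfbr3 positive on both.

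**Figure D4:**
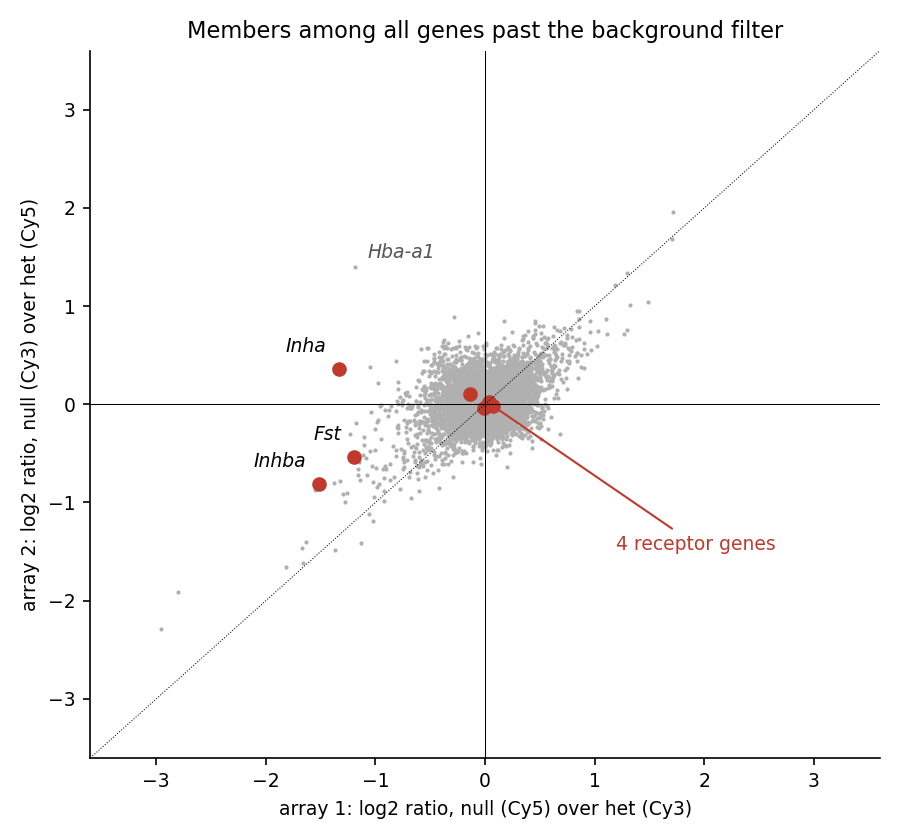
Log2 ratio, null over het, on array 1 (horizontal) against array 2 (vertical) for the 18561 genes past the background filter (grey), with the 7 genes measured on both arrays in red. Inhba and Fst lie in the lower left away from most genes, Inha lies in the upper left with Hba-a1 above it, and the 4 receptor genes lie at the centre.

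The genes with the ratio pair nearest to that of Inhba were sought over the 2 arrays, which share the same RNA. Slc38a3, an amino acid transporter gene, was the nearest of all, with -1.55 and -0.87. The other nearest genes with a symbol were Scgb3a1 (-1.16 and -0.72), a secreted secretoglobin, the prolactin receptor gene Prlr (-1.14 and -0.77), the histone gene H4c14 (-1.16 and -0.66) and Fst itself. Other entries lay between these, and 10 genes or transcripts were nearer to Inhba than Fst was.

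Around Inha the neighbours with a symbol were farther away. The nearest gene with a symbol was Nr5a2, which encodes the nuclear receptor liver receptor homolog 1, at a distance of 0.58 log2 units, against 0.07 for Slc38a3 and Inhba. Nearer to Inha than Nr5a2 lay 7 entries without a symbol, whereas none lay nearer to Inhba than Slc38a3. Nr5a2 had -1.18 on array 1 and -0.19 on array 2. The others were Eif3c (-0.86 and -0.02), a translation initiation factor subunit, Crim1 (-0.99 and -0.18), a transmembrane protein that binds BMPs, the RNA helicase gene Ddx6 (-0.80 and -0.00145) and AY036118 (-0.89 and -0.12). None of these 5 genes had the positive sign of Inha on array 2. The unnamed transcript AK019388, among the nearer entries, did have it (-1.05 and 0.38).

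Of 50 other genes of the pathway, chosen by role, 37 had a probe and 35 were past the filter. Cyp19a1 passed the size rule as lower, and none passed as higher, against 0.0916% and 0.0377% of all genes. Signs were negative on both arrays for 11, positive on both for 11 and opposite for 13, and the median ratio was -0.02. Of all genes, 24.3% were negative on both arrays and 22.7% positive on both. The counts by role below stand beside the same shares, and each covers few genes.

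Among ligands, Gdf9, a growth factor of the oocyte, had the largest ratio, 1.02 and 0.60 with a mean of 0.81 ± 0.30 (SD, n = 2). It and the ligand gene Bmp15 (mean 0.15) are also among the 8 oocyte markers that read higher in the null pool. Of the 5 ligand genes past the filter 4 were positive on both arrays and 0 negative on both. The other inhibin beta subunit genes gave values near 0, with Inhbc, known from liver, at 0.07 ± 0.01 near background and Inhbe at -0.02 ± 0.16.

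Among other receptors, 3 of 5 were negative on both arrays. The BMP receptor gene Bmpr1b had the largest, with -0.60 and -0.20 and a mean of -0.40 ± 0.28 (SD, n = 2). The inhibitors outside the cell and in the membrane lay between -0.11 and 0.06, and the largest was Bambi, a receptor-like inhibitor of BMP and activin signalling, at -0.11 ± 0.04. The Bambi probe was printed in 10 spots, whose SD was 0.04 on array 1 and 0.06 on array 2.

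The transducers lay between -0.07 and 0.02, with Smad4, the SMAD shared by all branches, at -0.07 ± 0.18. Of 5 inhibitors inside the cell, 4 were positive on both arrays, and the largest was Smad6 at 0.27 ± 0.24 (SD, n = 2). Furin, a protease that cleaves TGF-beta family precursors, had 0.25 ± 0.14.

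Of 8 granulosa genes on which activin or FSH acts, 5 were negative on both arrays and 1 positive on both. Cyp19a1, which encodes aromatase, fell with -1.13 and -1.41, a mean of -1.27 ± 0.20 (SD, n = 2). A transcript that the files call homologous to a rat inhibin-binding protein (AK030701) had -0.01 ± 0.07, and one described as similar to the rat activin receptor-like kinase 7 (AK049089) had -0.07 ± 0.20.

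**Figure D5:**
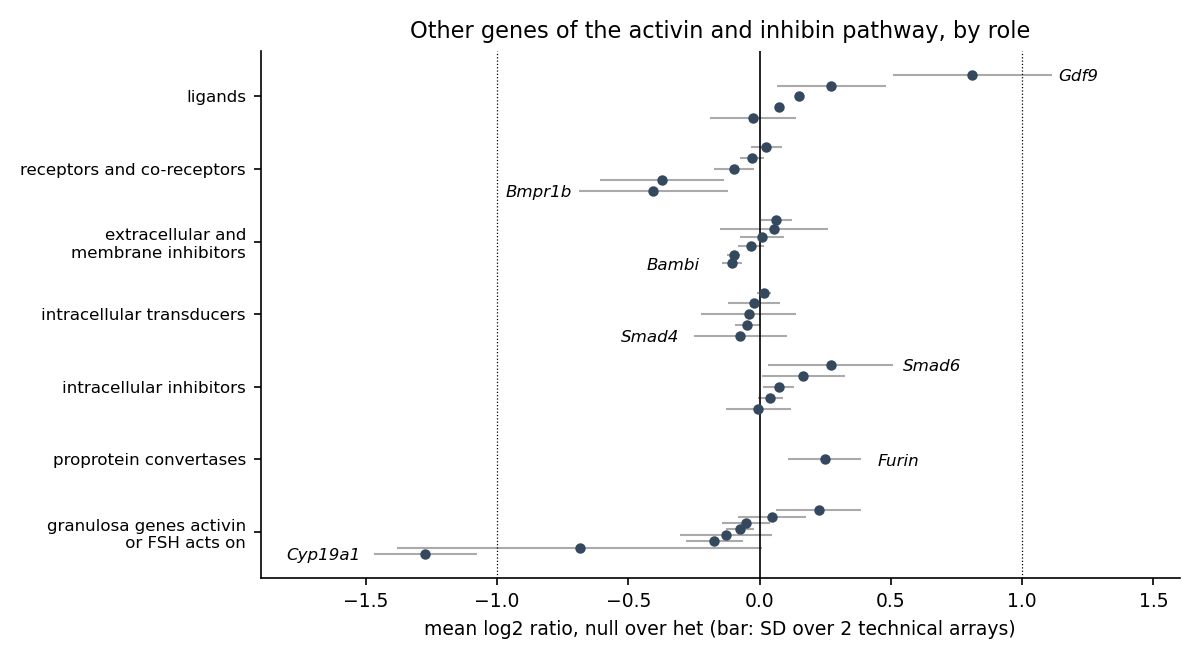
Mean log2 ratio, null over het (horizontal axis), of the 35 other pathway genes past the background filter, grouped by role (rows), with bars for the SD over the 2 technical arrays and dotted lines at 2-fold. Cyp19a1 lies beyond 2-fold on the left and Gdf9 is the highest at 0.81. The extracellular and membrane inhibitors and the transducers lie close to 0, and the intracellular inhibitors reach 0.27 (Smad6).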

How the data were processed

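RNA of 1 null and 1 het pool of granulosa cells was compared on 2 dye-reversed two-colour arrays. Per the labels' protocols, amplification and labelling began from 500 ng of total RNA, and hybridisation took 17 h with 750 ng of cRNA per dye. Intensity of spots and local background was deposited as scanner output of Agilent Feature Extraction A.7.5.1, per the file headers. Ratios in the scanner output are deposited on the log10 scale, red over green. Its p-value, also deposited, comes from the software's error model and covers single spots. Values in the deposited series table are log2 ratios of red over green, not turned to 1 direction, within 0.001 of the scanner log ratio for 99.8% of probes on both arrays, with medians of 0 and 0.0022. The other deposited columns used are scanner flags and pixel numbers.

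From these, with limma 3.58.1 in R 4.3.3 and with numpy 2.4.6 and pandas 2.3.3 in Python 3.11.15, mean signals were corrected by normexp (offset 50, local background median) then put through within-array loess in which control spots had weight 0. Array 2 was turned in sign and the arrays averaged as 1 replicate. Signals per pool were made comparable between arrays with limma's Aquantile. Flagged spots (58 on array 1, 95 on array 2, affecting 146 probes) were left out, spots of a probe averaged, and the brightest probe taken for a gene. Of 20868 probes, 8947 were named by accession through the RefSeq table of GRCm38.p6, 407 by a symbol in the description, 3 by the product described, and 11511 kept the file's name. The background filter asked for a probe well above background in at least 1 genotype on both arrays. The size rule asked for a mean log2 ratio 1 or more in size and for each array 1.5-fold or more in that direction. No model was fitted to 1 pool a genotype, and the number of arrays limits the precision.

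Named were the members, Esr2, the pathway gene past the size rule and the gene farthest from 0 in each role, and the 5 genes with a symbol nearest to Inhba and to Inha in ratio. Inhbc, Inhbe, Bmp15, the 2 similar transcripts, Hba-a1 and AK019388 were named outside that rule. The members and lists were chosen with earlier results of these data known. Alternatives were the scanner software's and series table ratios, no background subtraction, an offset of 10, median centring, each array alone, the mean over probes, other background filters, requiring only 1.5-fold, and adding an error-model p-value limit of 0.01. Keeping flagged spots was added after the data were seen.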

Additional observations from a re-analysis of the deposited data

How the results depend on the processing

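The mean log2 ratio of Inhba (-1.16) was between -1.22 and -1.16 in the settings that used both arrays, and that of Inha (-0.49) between -0.52 and -0.49. With 1 array alone Inhba ranged from -1.51 to -0.81 and Inha from -1.34 to 0.36. The count of 1 gene past the size rule among the members, Inhba, stayed at 1 with the same gene in every setting with both arrays except the 1.5-fold threshold, which gave 2 (Inhba and Fst). It ranged from 0 to 3 with 1 array alone, being 0 on array 2 and Fst, Inha and Inhba on array 1. Keeping flagged spots left it at 1. Inhbb, read on array 2 only, had -0.79, and -1.47 under median centring, where bright genes as a whole read lower on that array. The means of the 4 receptor genes past the background filter moved by less than 0.1 with both arrays, and that of Acvr1b turned positive under median centring (0.05) and with the scanner and series table ratios (0.00315). The pathway count of 1 (Cyp19a1) became 3 when only 1.5-fold was required, with Nr5a2 lower and Gdf9 higher. Single arrays gave 1 to 3. The count of 24 over all genes became 72 with the scanner software's and with the series table ratios, 48 with an offset of 10, and 155 when only 1.5-fold was required. Single arrays gave 17 to 52. With no background subtraction, which adds no offset but leaves the local background in each signal, the count over all genes stayed at 24. The cause of the changes in these counts was not tested. Signal over background limits the receptor genes, which were at most 4.56 times the background. No paired analysis was possible because each genotype was a single RNA pool.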

Other observations

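The 3 genes or transcripts with the largest SD between the turned arrays all had loess-normalized ratios below 0 for Cy5 over Cy3 on both arrays, and were named after their values were seen. Because array 2 was turned in sign, choosing by that SD largely builds in the same Cy5 over Cy3 sign on both arrays. Hba-a1 had log2 red over green ratios of -1.19 on array 1 and -1.40 on array 2, Inha had -1.34 and -0.36 (0.13 on array 2 under median centring), and the unnamed transcript AK019388 had -1.05 and -0.38. The first was nearly equal on both arrays, whereas Inha and AK019388 were farther from 0 on array 1.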
